A study of Mus musculus with 12 samples.

Results

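The genes described here are 10 members of the mouse Cyp2c cytochrome P450 family, Cyp2c29, Cyp2c37, Cyp2c38, Cyp2c39, Cyp2c40, Cyp2c44, Cyp2c50, Cyp2c54, Cyp2c55 and Cyp2c70, taken by symbol from the 31253 gene symbols of each liver library. A further 6 symbols of the files begin with Cyp2c and are not members. All 10 members had a TPM (a relative transcript level, corrected for transcript length) above 1 in at least 3 of the 12 libraries and so passed the filter on low values. Cytochromes P450 are haem enzymes of the endoplasmic reticulum that receive electrons from the reductase encoded by Por and insert oxygen into drugs, steroids and fatty acids. In mouse liver the Cyp2c enzymes are a main source of epoxyeicosatrienoic acids, the signalling epoxides of arachidonic acid that soluble epoxide hydrolase (Ephx2) breaks down, and several Cyp2c genes respond to the nuclear receptors CAR (Nr1i3) and PXR (Nr1i2). Cyp2c70 stands apart in function, since in mice it turns chenodeoxycholic acid into muricholic acid, a hydrophilic bile acid.

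The livers came from male C57BL6 mice of 2 genotypes. S302A mice carried a knock-in allele of CUGBP1, an RNA-binding protein encoded by Celf1, with alanine in place of a serine, and WT mice carried the normal allele. In S302A_DEN and WT_DEN, diethylnitrosamine (DEN), a liver carcinogen that hepatocytes convert into a DNA-alkylating agent, had been injected at 50 µg per g of body weight at 3 weeks of age. S302A_Ctrl and WT_Ctrl had no treatment, and all 4 groups were taken at 33 to 41 weeks of age, with n = 3 libraries in each group. Whether the 3 libraries of a group come from separate animals is not stated in the labels, so the p-values reflect the spread among libraries, which may be technical. TPM values keep no record of sequencing depth, so the depth behind each value is unknown. In whole-liver RNA, fewer cells of a type and less RNA per cell cannot be told apart.

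1 library, S302A_DEN replicate 3, was unlike the other 11, and the comparisons that use S302A_DEN are given with and, where the call or value moved, without it. Without it far more genes passed between S302A and WT livers after DEN, 70 higher and 630 lower (5.3%) of 11883 tested. Counts of that comparison without it are read against that share. Its Spearman correlations with the other 11 libraries were 0.877 to 0.913, against 0.937 to 0.980 among the others. Its median-of-ratios scaling factor was 1.69, against 0.820 to 1.18. The summed level of 7 liver tumour and fetal markers was 764 TPM in it, against 9.48 to 36.0 TPM in the other libraries. The files' values had a floor of 1, so a value of 1 means 1 TPM or less.

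The genes lie on mouse chromosome 19 (GRCm38, GENCODE M21 annotation). In order along the chromosome, Cyp2c55, Cyp2c29, Cyp2c38, Cyp2c39, Cyp2c40, Cyp2c37, Cyp2c54, Cyp2c50 and Cyp2c70 fall within 1180.3 kb, from position 39007019 to 40187333. Cyp2c44, which the annotation lists under its other symbol Cyp2c23, lies 3817.7 kb farther on, from 44005022 to 44029208. Cyp2c37 (39992424 to 40012243, plus strand), Cyp2c54 (40037940 to 40073827, minus strand) and Cyp2c50 (40089688 to 40113950, plus strand) follow one another among the Cyp2c genes, within 121.5 kb. Cyp2c29 (39269405 to 39330713, plus strand) overlaps the annotated pseudogene Cyp2c53-ps (39229254 to 39274985, plus strand), and Cyp2c70 (40153353 to 40187333) is on the minus strand. The promoter windows of Cyp2c37 and Cyp2c50 are printed because these genes held the clearest genotype difference and their upstream sequence is a near copy. Both are RefSeq sequences of GRCm38.p6, 250 bases before to 50 after the transcript start, chr19:39992174-39992473 and chr19:40089429-40089728 on the plus strand. They were identical at 264 of 295 aligned bases (89.5%), and capitals mark bases that differ or have no aligned partner in the other window.
Cyp2c37: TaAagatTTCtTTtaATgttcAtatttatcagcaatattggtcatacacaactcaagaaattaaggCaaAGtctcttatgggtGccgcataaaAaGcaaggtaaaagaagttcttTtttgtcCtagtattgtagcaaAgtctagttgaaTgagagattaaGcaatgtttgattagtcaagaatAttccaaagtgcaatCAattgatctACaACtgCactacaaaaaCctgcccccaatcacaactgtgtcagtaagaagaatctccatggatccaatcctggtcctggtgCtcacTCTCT
Cyp2c50: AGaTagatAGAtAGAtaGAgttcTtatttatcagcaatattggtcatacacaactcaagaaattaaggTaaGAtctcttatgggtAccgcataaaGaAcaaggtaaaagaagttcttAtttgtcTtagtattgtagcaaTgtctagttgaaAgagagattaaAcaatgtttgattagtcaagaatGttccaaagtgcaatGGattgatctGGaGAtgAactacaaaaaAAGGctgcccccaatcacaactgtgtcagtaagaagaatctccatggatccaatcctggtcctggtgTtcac
Neither window held any of the 5 motifs searched on both strands: AGGTCA, the core of nuclear receptor sites (in 16.3% of all 32851 promoter windows of this length), TGGACTTTG or its reverse complement CAAAGTCCA, a site type of HNF4 (0.475%), TTGCGCAA, a palindromic C/EBP site (0.183%), TTCNNNGAA, a STAT5 site (8.30%), and the palindromic HNF1 site (0.0091%).

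The windows of Cyp2c29, the most abundant member, and of Cyp2c70, which shares no word of sequence with the other members, are shown for comparison, from chr19:39286835-39287134 on the plus strand and chr19:40187237-40187536 on the minus strand. Capitals mark motif matches, AGGTCA in Cyp2c29 at -154 from the RefSeq start, and AGGTCA at -74 and CAAAGTCCA at -64 in Cyp2c70. The Cyp2c29 window lies inside the gene as GENCODE annotates it, from 39269405, so -154 does not count from that position.
Cyp2c29: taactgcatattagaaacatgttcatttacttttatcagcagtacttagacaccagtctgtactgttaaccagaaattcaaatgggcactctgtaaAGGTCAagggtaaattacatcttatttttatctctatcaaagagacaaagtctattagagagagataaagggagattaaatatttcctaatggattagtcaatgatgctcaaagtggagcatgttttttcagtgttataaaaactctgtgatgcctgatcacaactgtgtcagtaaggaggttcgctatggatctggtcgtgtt
Cyp2c70: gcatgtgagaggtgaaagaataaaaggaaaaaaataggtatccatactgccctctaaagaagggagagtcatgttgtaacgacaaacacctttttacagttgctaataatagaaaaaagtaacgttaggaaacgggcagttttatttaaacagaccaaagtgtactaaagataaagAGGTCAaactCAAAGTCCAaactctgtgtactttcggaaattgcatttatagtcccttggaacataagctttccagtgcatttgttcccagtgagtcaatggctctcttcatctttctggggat
AGGTCA also stood in 1 of the 2 windows of Cyp2c39, at chr19:39347096-39347395, far before the gene's annotated start at 39510862. The window at that start held no match. CAAAGTCCA stood in the window of Cyp2c40 and in those of the non-members Cyp2c65, Cyp2c67, Cyp2c68 and Cyp2c69. A match to these letters is a description of the window, not a bound site.

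Transcripts of the family share sequence, which bears on how reads were divided among members. Cyp2c37, Cyp2c50 and Cyp2c54 form a trio whose transcripts were 94.8% to 95.8% identical, Cyp2c38 and Cyp2c39 were 94.0% identical, and Cyp2c40 was 97.6% to 98.0% identical to the non-members Cyp2c67, Cyp2c68 and Cyp2c69. Of the 31-base words of each transcript, 83.1% in Cyp2c40 occurred in another gene's transcripts. The share was 47.4% in Cyp2c37, 47.3% in Cyp2c50, 42.3% in Cyp2c54, 26.9% in Cyp2c39, 16.6% in Cyp2c38, 16.2% in Cyp2c29 and 2.90% in Cyp2c55. Cyp2c44 and Cyp2c70 shared no such word with any other gene. The values of Cyp2c40, of the trio and of Cyp2c38 and Cyp2c39 are therefore uncertain as single genes, and sums over near-identical genes are given beside them.

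**Figure D1:**
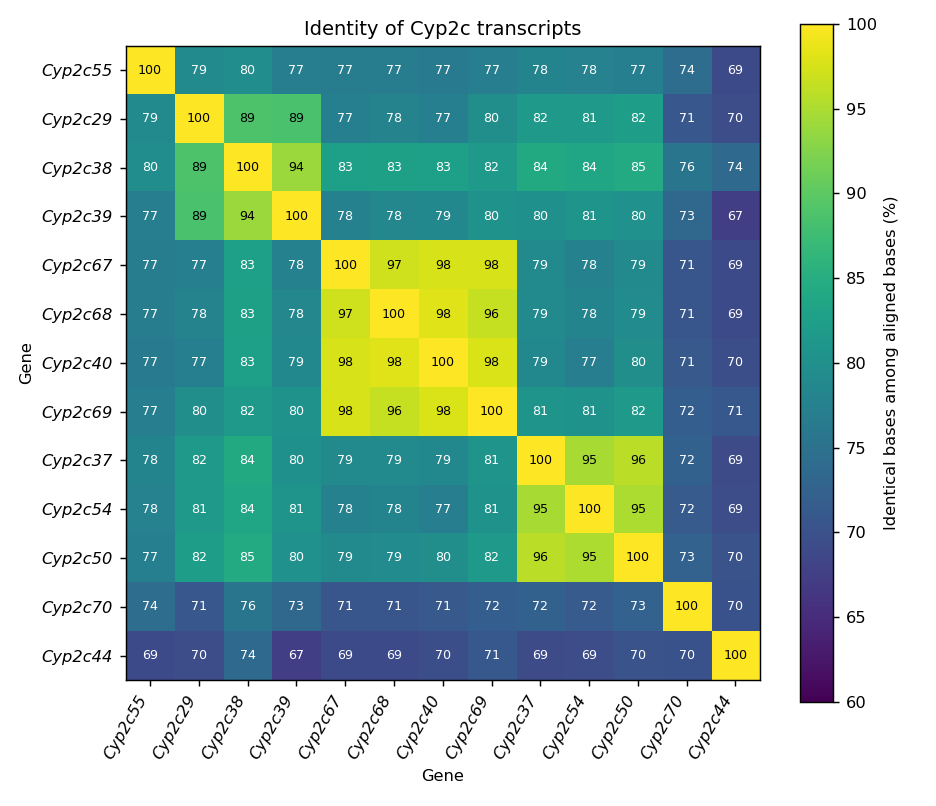
Percentage of identical bases among aligned bases for each pair of Cyp2c transcripts (rows and columns in chromosomal order, colour scale in percent). Cyp2c37, Cyp2c54 and Cyp2c50 form 1 block of near-identical transcripts and Cyp2c67, Cyp2c68, Cyp2c40 and Cyp2c69 another, while Cyp2c70 and Cyp2c44 stand apart from all.

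In WT livers the family was led by Cyp2c29, an epoxygenase that CAR activators induce. It averaged 1712 ± 351 TPM in WT_DEN and 1085 ± 86.5 TPM in WT_Ctrl (SD, n = 3 each). Cyp2c50, another arachidonate and linoleate epoxygenase, followed at 839 ± 187 TPM in WT_DEN and 648 ± 48.2 TPM in WT_Ctrl, and Cyp2c70 at 558 ± 70.2 TPM in WT_DEN and 448 ± 65.8 TPM in WT_Ctrl. Cyp2c37, Cyp2c54 and Cyp2c44 lay between 166 and 448 TPM in the 6 WT libraries, with ranges that overlapped one another. Cyp2c38, Cyp2c39, a retinoic acid hydroxylase, Cyp2c40 and Cyp2c55 were minor transcripts, all at or below 43.8 TPM in WT libraries. In S302A_DEN the order differed: Cyp2c70 averaged 702 ± 259 TPM and Cyp2c29 395 ± 162 TPM, and Cyp2c70 was the higher of the pair in 3 of 3 S302A_DEN libraries and in none of the other 9.

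**Figure D2:**
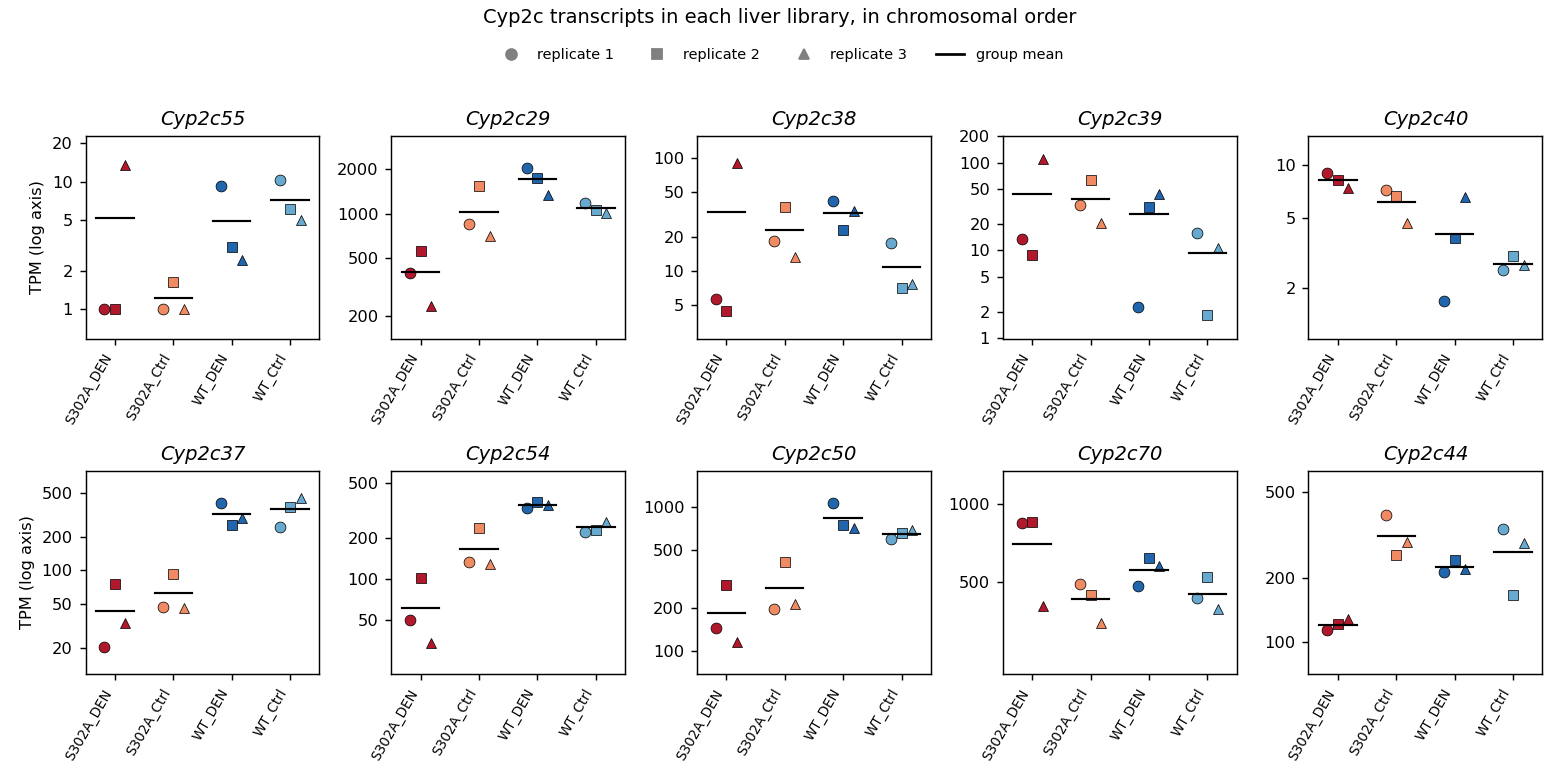
TPM of each of the 10 genes (log axes, a panel per gene in chromosomal order) in the 3 libraries of S302A_DEN, S302A_Ctrl, WT_DEN and WT_Ctrl, with points for libraries and bars for group means. In the Cyp2c37 and Cyp2c50 panels all 6 S302A libraries lie below all 6 WT libraries, and in the Cyp2c38, Cyp2c39 and Cyp2c55 panels S302A_DEN replicate 3 lies far above its group.

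After DEN, 4 abundant epoxygenase genes were lower in S302A than in WT livers: Cyp2c29, Cyp2c37, Cyp2c50 and Cyp2c54. Cyp2c37, which makes hydroxy and epoxy acids of arachidonic acid and is inducible by phenobarbital, had 20.6, 74.9 and 33.9 TPM in S302A_DEN libraries and 408, 259 and 299 TPM in WT_DEN libraries. Cyp2c54 had 50.3, 101 and 34.3 TPM in S302A_DEN and 330, 364 and 347 TPM in WT_DEN. For both genes the highest S302A_DEN library lay far below the lowest WT_DEN library. Cyp2c50 had 146, 287 and 117 TPM in S302A_DEN and 1055, 744 and 719 TPM in WT_DEN. Cyp2c29 had 394, 559 and 234 TPM in S302A_DEN and 2039, 1755 and 1341 TPM in WT_DEN. These groups did not overlap either, and S302A_DEN replicate 2 was the highest of its group for all 4 genes.

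In limma's moderated test on log2(TPM + 1) over all 12 libraries, with Benjamini-Hochberg adjustment over all 12120 genes tested, Cyp2c54 fell by 2.61 ± 0.34 (SE; 6.10-fold lower, adjusted p = 0.00747) and Cyp2c37 fell by 3.04 ± 0.42 (8.24-fold lower, adjusted p = 0.0118). Cyp2c50 fell by 2.28 ± 0.34 (4.84-fold lower, adjusted p = 0.0169) and Cyp2c29 fell by 2.18 ± 0.34 (4.53-fold lower, adjusted p = 0.0191). Thus 4 of 10 members passed as lower and 0 as higher, against 0.272% of all genes that passed as lower and 0.107% that passed as higher. At an unadjusted p under 0.05 there were 6 members, against 7.83% of all genes. The median difference of the members was -1.02, beside 0.07 over all genes tested. Without S302A_DEN replicate 3 the 4 calls held, at adjusted p from 0.00371 to 0.0117, when 5.3% of all genes passed as lower. On leaving out 1 library, calls were lost only where that was a WT_DEN library. None held without WT_DEN replicate 3 (adjusted p = 0.0687 for Cyp2c29, Cyp2c37 and Cyp2c50, while Cyp2c54 missed the threshold narrowly). The differences in that fit stayed close to those over 12 libraries. They were -2.34 for Cyp2c29, -3.08 for Cyp2c37, -2.38 for Cyp2c50 and -2.61 for Cyp2c54. Without WT_DEN replicate 1 or 2 only Cyp2c37 and Cyp2c54 were called. None held either in a fit of the 6 libraries of this comparison alone (0.0730 to 0.0897) or without the filter on low values (0.159 to 0.180). The summed level of 6 hepatocyte markers, with Alb the largest part, also differed in this comparison. It was 53898 to 63961 TPM in S302A_DEN and 74953 to 89686 TPM in WT_DEN, and its part in these results was not tested.

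Among the other members, Cyp2c44, an epoxygenase of liver and kidney, was lower without overlap but did not pass. It had 114, 121 and 128 TPM in S302A_DEN and 212, 241 and 220 TPM in WT_DEN, a difference of -0.89 ± 0.25 (adjusted p = 0.211), or -0.93 without S302A_DEN replicate 3 (0.0673). Cyp2c40, which makes a hydroxy acid of arachidonic acid, had 8.96, 8.19 and 7.41 TPM in S302A_DEN and 1.68, 3.82 and 6.58 TPM in WT_DEN, a difference of 0.99 ± 0.32 (adjusted p = 0.305). It was the only member higher in every S302A_DEN than in every WT_DEN library. Counted by overlap, 5 members were lower without overlap, against 6.19% of all genes, and 1 was higher, against 3.23%.

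Cyp2c70 had 847, 856 and 403 TPM in S302A_DEN and 481, 618 and 576 TPM in WT_DEN. S302A_DEN replicates 1 and 2 lay above all WT_DEN libraries and replicate 3 below them, and the difference was 0.26 (95% interval -0.35 to 0.86, adjusted p = 0.900), or 0.62 without replicate 3 (adjusted p = 0.0739). Cyp2c38 had 5.56, 4.36 and 90.4 TPM in S302A_DEN and 41.4, 22.9 and 33.7 TPM in WT_DEN. Here too replicate 3 went the other way, and the difference of -1.15 (adjusted p = 0.839) was -2.47 without it (adjusted p = 0.0136). Cyp2c39 had 13.6, 8.81 and 111 TPM in S302A_DEN and 2.30, 31.1 and 43.8 TPM in WT_DEN, and its difference of 0.59 (adjusted p = 0.955) was -0.49 without replicate 3 (adjusted p = 0.815). Cyp2c55, a hydroxylase of arachidonic acid best known from the colon, had 1, 1 and 13.5 TPM in S302A_DEN and 9.19, 3.07 and 2.40 TPM in WT_DEN. Its difference was -0.43 (adjusted p = 0.941) and -1.38 without replicate 3 (adjusted p = 0.0723).

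**Figure D3:**
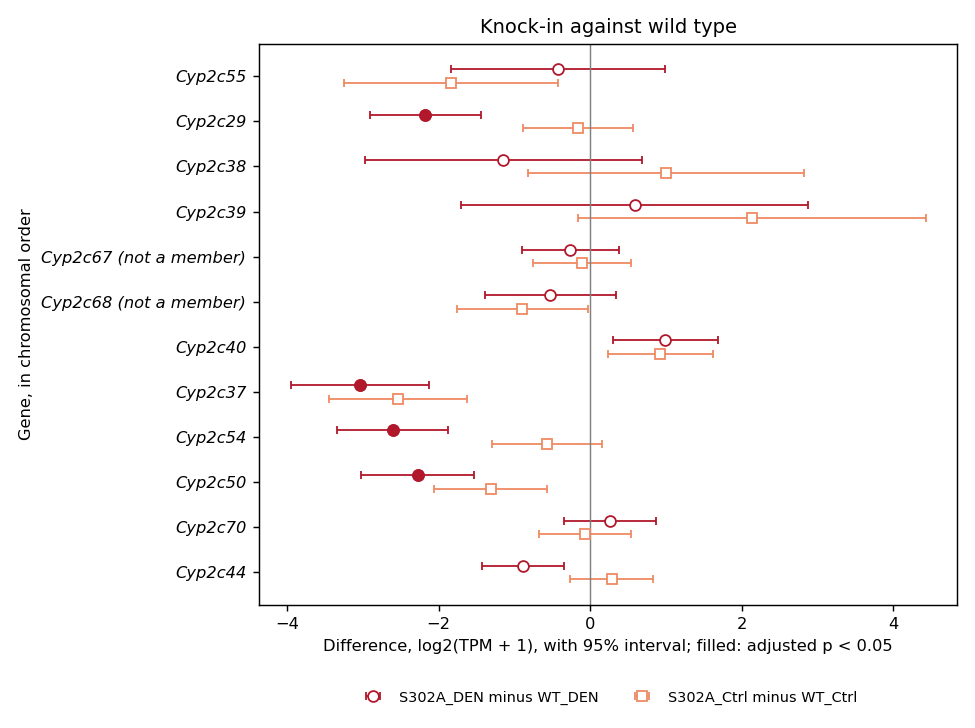
Difference between S302A and WT livers on the log2(TPM + 1) scale (horizontal axis, with 95% intervals) for the 10 members and the non-members Cyp2c67 and Cyp2c68 in chromosomal order, after DEN (circles) and untreated (squares). Filled symbols passed an adjusted p of 0.05: Cyp2c29, Cyp2c37, Cyp2c54 and Cyp2c50 after DEN, and none untreated.

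In untreated livers none of the 10 members passed the limma test between S302A and WT, while 4 of 10 had an unadjusted p under 0.05. Over all genes the adjusted test called 0.033% and the unadjusted one 1.48%. Cyp2c37 had 46.6, 93.3 and 46.4 TPM in S302A_Ctrl and 248, 374 and 448 TPM in WT_Ctrl, a difference of -2.54 ± 0.42 (adjusted p = 0.113). Cyp2c50 had 195, 417 and 214 TPM in S302A_Ctrl and 594, 663 and 687 TPM in WT_Ctrl, a difference of -1.32 ± 0.34 (adjusted p = 0.988). Both were lower in S302A_Ctrl without overlap, as was Cyp2c55, with 1, 1.63 and 1 TPM in S302A_Ctrl and 10.2, 6.09 and 4.99 TPM in WT_Ctrl (-1.84 ± 0.65, adjusted p of 1). The 3 members lower without overlap compare with 5.27% of all genes. The S302A_DEN libraries enter the estimate of spread, and Cyp2c37 passed in untreated livers without S302A_DEN replicate 1 (adjusted p = 0.0356) or replicate 2 (0.0198). Without S302A_DEN replicate 3 it did not pass (0.184), and the highest adjusted p on leaving out 1 library was 0.512.

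Cyp2c54, the third gene of the trio, had 134, 237 and 128 TPM in S302A_Ctrl and 221, 230 and 263 TPM in WT_Ctrl, and the groups overlapped (-0.57 ± 0.34, adjusted p of 1). Cyp2c29 had 842, 1535 and 704 TPM in S302A_Ctrl and 1180, 1065 and 1011 TPM in WT_Ctrl, with S302A_Ctrl libraries on both sides of the WT_Ctrl range. Its difference was -0.16, with a 95% interval of -0.89 to 0.57. Cyp2c39 had 32.7, 62.8 and 20.8 TPM in S302A_Ctrl and 15.7, 1.83 and 10.7 TPM in WT_Ctrl, higher without overlap (2.13 ± 1.06, adjusted p of 1). Cyp2c40 had 7.19, 6.62 and 4.68 TPM in S302A_Ctrl and 2.51, 3.01 and 2.67 TPM in WT_Ctrl, also higher without overlap (0.93 ± 0.32). These 2 members compare with 1.69% of all genes that were higher without overlap. Cyp2c38, Cyp2c44 and Cyp2c70 overlapped between the groups, with differences of 1.00, 0.28 and -0.07.

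Over both treatments together, Cyp2c37 and Cyp2c50 separated the genotypes completely. Cyp2c37 lay between 20.6 and 93.3 TPM in the 6 S302A libraries and between 248 and 448 TPM in the 6 WT libraries. Cyp2c50 lay between 117 and 417 TPM in S302A and between 594 and 1055 TPM in WT libraries. Of all 12120 genes tested, 7 (0.0578%) were lower in all 6 S302A than in all 6 WT libraries, and none was higher. The other 5 were Ctcfl, Ech1, Lgals4, Ntrk2 and Slc1a2, of which Ctcfl was near the floor throughout (1 TPM in S302A and at most 1.46 TPM in WT libraries). In a contrast of the mean of both S302A groups against the mean of both WT groups, which was added after the data were seen, Cyp2c37 differed by -2.79 ± 0.30 (6.92-fold lower, adjusted p = 0.00668) and Cyp2c50 by -1.80 ± 0.24 (3.47-fold lower, adjusted p = 0.0422). They were the only genes called, 2 of 12120 (0.0165%), and both are members. At an unadjusted p under 0.05 there were 6 members, against 4.41% of all genes. Cyp2c54 differed by -1.59 ± 0.24 (adjusted p = 0.0584), and Cyp2c29 by -1.17 ± 0.24 (adjusted p = 0.223). The Cyp2c37 call held without each library in turn (highest adjusted p 0.0355), and both calls ended under median-of-ratios scaling (0.0641 for Cyp2c37 and 0.158 for Cyp2c50), without a filter and with the filter on 1 library. The Cyp2c50 call ended on leaving out any 1 of 8 libraries, at up to 0.161. Without S302A_DEN replicate 3 the Cyp2c50 call held (0.0167), and Cyp2c54 (0.0167) and Cyp2c55 (0.0339) were called as well. In that fit 15 genes passed as higher (0.126%) and 80 as lower (0.673%) of 11883 tested, so the called genes were no longer members alone.

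The summed level of Cyp2c37, Cyp2c50 and Cyp2c54, which does not depend on how reads were divided within the trio, separated the genotypes as well. It was 217, 463 and 185 TPM in S302A_DEN, 376, 747 and 388 TPM in S302A_Ctrl, 1794, 1366 and 1365 TPM in WT_DEN, and 1063, 1267 and 1397 TPM in WT_Ctrl. The highest S302A library lay below the lowest WT library. The sum of Cyp2c40 with its near-identical non-members Cyp2c67, Cyp2c68 and Cyp2c69 showed no such separation. It was 561, 567 and 536 TPM in S302A_DEN, 453, 531 and 312 TPM in S302A_Ctrl, 670, 681 and 694 TPM in WT_DEN and 694, 511 and 355 TPM in WT_Ctrl. After DEN this sum was lower in S302A than in WT livers without overlap, while Cyp2c40 alone was higher without overlap, so Cyp2c40 and its sequence group had opposite directions. Cyp2c38 and Cyp2c39 summed to 19.2, 13.2 and 201 TPM in S302A_DEN and 43.7, 54.0 and 77.5 TPM in WT_DEN. Untreated, their sum was 50.9, 99.6 and 34.1 TPM in S302A_Ctrl and 33.5, 8.81 and 18.4 TPM in WT_Ctrl. These untreated groups were barely apart, at 34.1 against 33.5 TPM.

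DEN against no treatment in S302A livers gave 1 member that passed the test. Cyp2c44 had 114, 121 and 128 TPM in S302A_DEN and 393, 254 and 293 TPM in S302A_Ctrl, and fell by 1.35 ± 0.25 (limma, adjusted p = 0.0364), against 0.198% of all genes that passed as lower. At an unadjusted p under 0.05 there were 4 members, against 16.4% of all genes. The 3 S302A_DEN libraries of this gene were close together, at 121 ± 7.16 TPM, and the call held without S302A_DEN replicate 3 (adjusted p = 0.0267). It ended without S302A_DEN replicate 1 (0.0860), S302A_Ctrl replicate 1 (0.198), 2 (0.0680) or 3 (0.136), WT_DEN replicate 1 (0.0508), 2 (0.0694) or 3 (0.0617) or WT_Ctrl replicate 3 (0.0524). Cyp2c54 (-1.49 ± 0.34, adjusted p = 0.0654) and Cyp2c29 (-1.38 ± 0.34, adjusted p = 0.0852) were lower in S302A_DEN than in S302A_Ctrl without overlap and did not pass, nor did they without S302A_DEN replicate 3 (-1.15, 0.0748 for Cyp2c54 and -1.05, 0.105 for Cyp2c29). These 3 members lower without overlap compare with 2.68% of all genes. Cyp2c40 was higher without overlap (0.37 ± 0.32, adjusted p = 0.518), as were 15.8% of all genes. Cyp2c70 (0.65 ± 0.28, adjusted p = 0.290) was called as higher without S302A_DEN replicate 3 (1.01, adjusted p = 0.0227). Without that library 1.22% of all genes passed as higher and 1.21% as lower. Cyp2c37 (-0.63, adjusted p = 0.425) and Cyp2c50 (-0.61, adjusted p = 0.378) overlapped between the groups. The members' median was -0.59, beside 0.27 over all genes.

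In WT livers no member passed between WT_DEN and WT_Ctrl, and none had an unadjusted p under 0.05, against 0.132% and 8.26% of all genes. Cyp2c29 (0.64 ± 0.34, adjusted p = 0.669), Cyp2c38 (1.59 ± 0.84, adjusted p = 0.671), Cyp2c50 (0.35 ± 0.34, adjusted p = 0.902) and Cyp2c54 (0.55 ± 0.34, adjusted p = 0.762) were higher in WT_DEN without overlap, as were 21.7% of all genes. No member was lower without overlap, against 3.21% of all genes. The members' median was 0.34, beside 0.13 over all genes.

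The test of the difference between the DEN responses of the genotypes called no member in limma, and 3 had an unadjusted p under 0.05, against 0.0413% and 5.06% of all genes. Cyp2c54 had an interaction of -2.04 ± 0.48 (95% interval -3.07 to -1.01, adjusted p = 0.304) and Cyp2c29 one of -2.02 ± 0.48 (-3.05 to -0.98, adjusted p = 0.315). Without S302A_DEN replicate 3 these were -1.69 (adjusted p = 0.0953) for Cyp2c54 and -1.68 (0.104) for Cyp2c29. The third was Cyp2c44, with -1.17 ± 0.36 (adjusted p = 0.507). For Cyp2c29 and Cyp2c54, in TPM as deposited, all DEN libraries lay above the untreated ones in WT and below them in S302A. The same placement was found in 39 genes of all tested (0.322%), and the reverse one in 17 genes (0.14%). Under median-of-ratios scaling the WT groups of Cyp2c54 overlapped. Cyp2c38 had -2.15 ± 1.19 (adjusted p = 0.975), and without S302A_DEN replicate 3 it was the member called, with -3.47 (adjusted p = 0.0311). In that fit 20 genes passed as higher and 55 as lower (0.463%) of 11883 tested.

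**Figure D4:**
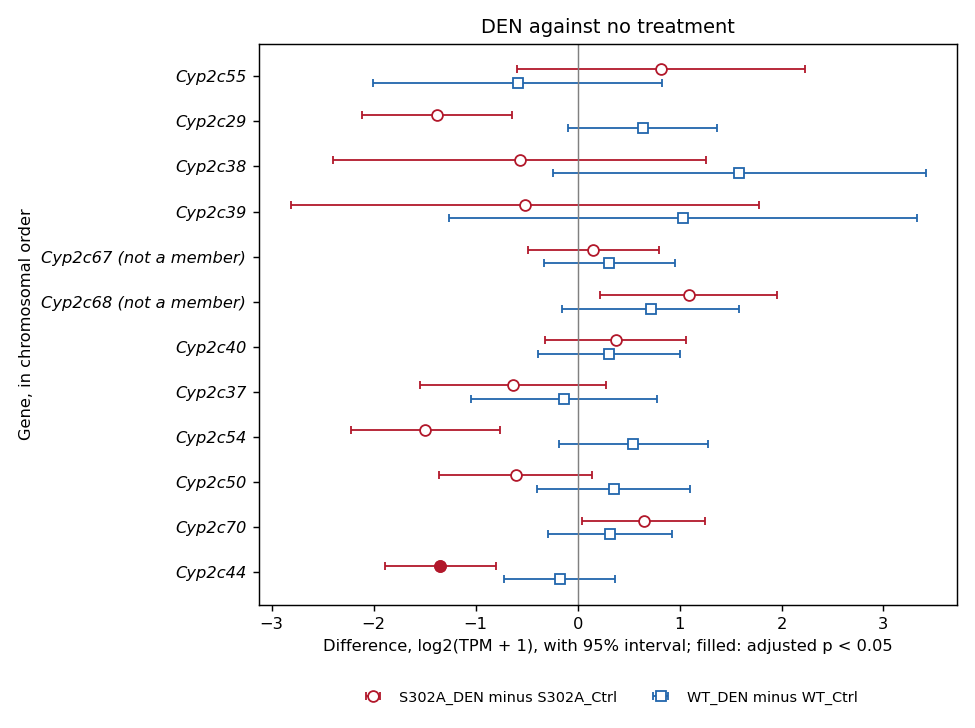
Difference between DEN-treated and untreated livers on the log2(TPM + 1) scale (horizontal axis, with 95% intervals) for the same genes, in S302A (circles) and in WT (squares). The filled circle of Cyp2c44 in S302A is the only symbol past an adjusted p of 0.05, and for Cyp2c29 and Cyp2c54 the S302A values lie left of 0 and the WT values right of it.

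The sum over the 10 members was 1600, 2021 and 1172 TPM in S302A_DEN, 2161, 3092 and 1772 TPM in S302A_Ctrl, 4581, 4042 and 3589 TPM in WT_DEN and 3059, 3037 and 3118 TPM in WT_Ctrl. The group means were 1598 ± 425 TPM in S302A_DEN, 2341 ± 679 TPM in S302A_Ctrl, 4071 ± 496 TPM in WT_DEN and 3071 ± 42.0 TPM in WT_Ctrl (SD, n = 3 each). All S302A_DEN sums lay below all WT_DEN sums, and the mean was 2.55-fold lower. All S302A_Ctrl libraries but replicate 2 lay below the WT_Ctrl range, and the S302A_Ctrl mean was 1.31-fold lower. S302A_DEN and S302A_Ctrl overlapped, while all WT_DEN sums lay above all WT_Ctrl sums, with means 1.33-fold apart. Under median-of-ratios scaling the WT groups overlapped, since WT_DEN replicate 3 had 3419, below WT_Ctrl replicates 2 (3441) and 3 (3519). Without S302A_DEN replicate 3 the log2 difference of the mean sums was -1.17 after DEN, against -1.35 with it. No test was made of the sum, since its members were chosen with results known.

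**Figure D5:**
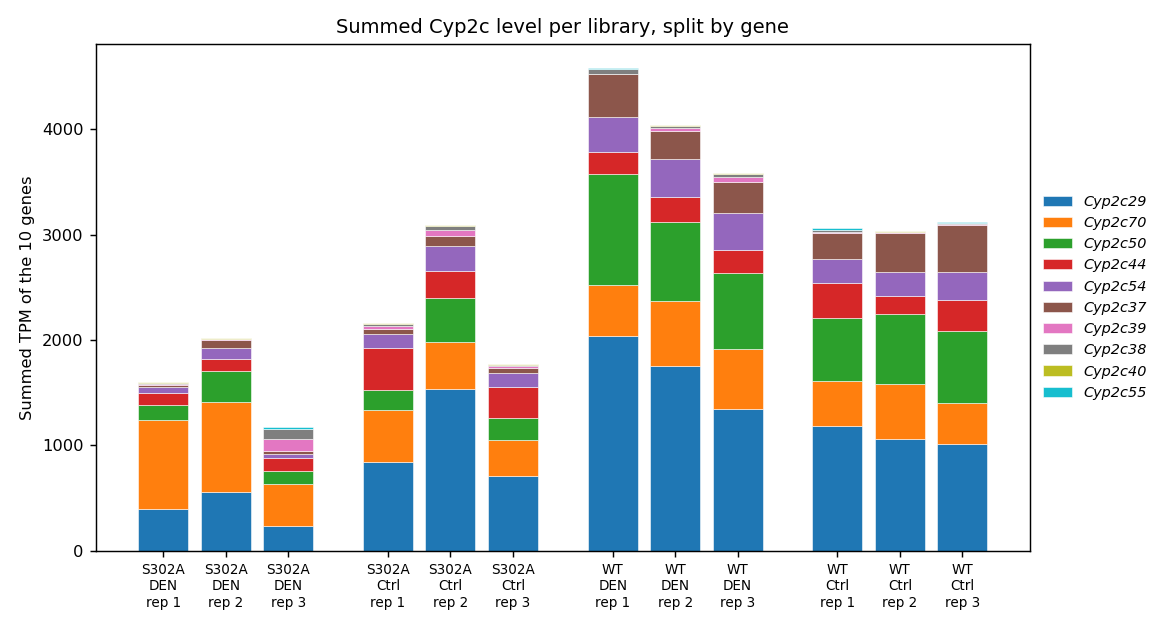
Summed TPM of the 10 genes in each library, bars split by gene (colours) and grouped as S302A_DEN, S302A_Ctrl, WT_DEN and WT_Ctrl. The S302A_DEN bars reach 1172 to 2021 TPM and the WT_DEN bars 3589 to 4581 TPM, and Cyp2c70 takes the widest part of each S302A_DEN bar.

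The make-up of the sum differed between the groups. Cyp2c70 made up 34.4% to 52.9% of it in S302A_DEN, 14.5% to 22.7% in S302A_Ctrl, 10.5% to 16.1% in WT_DEN and 12.6% to 17.1% in WT_Ctrl. Cyp2c29 made up 19.9% to 27.6% in S302A_DEN, 39.0% to 49.6% in S302A_Ctrl, 37.4% to 44.5% in WT_DEN and 32.4% to 38.6% in WT_Ctrl. Thus the bile acid enzyme gene held the widest share in S302A_DEN alone of the 4 groups. Cyp2c37 made up 1.29% to 3.71% in S302A_DEN, 2.16% to 3.02% in S302A_Ctrl, 6.41% to 8.91% in WT_DEN and 8.11% to 14.4% in WT_Ctrl. Without Cyp2c70 the sum was 753, 1165 and 769 TPM in S302A_DEN and 4100, 3424 and 3013 TPM in WT_DEN.

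Across the 12 libraries the members fell into sets that moved together, described here by Pearson's r of log2(TPM + 1) without a test, since the libraries share their groups. Within the trio r was 0.96 for Cyp2c37 with Cyp2c50, 0.93 for Cyp2c50 with Cyp2c54 and 0.87 for Cyp2c37 with Cyp2c54. Cyp2c29, whose transcript is less like those of the trio, had 0.97 with Cyp2c54, 0.89 with Cyp2c50 and 0.77 with Cyp2c37. These values were 0.76 to 0.97 over the 11 libraries without S302A_DEN replicate 3, the lowest again for Cyp2c29 with Cyp2c37. Cyp2c70 and Cyp2c44, the genes with no shared words, had opposite patterns (-0.61, and -0.81 over 11 libraries). Cyp2c40 ran against Cyp2c55 (-0.62, and -0.91 over 11 libraries) and against Cyp2c37 (-0.80 and -0.78). Within S302A_Ctrl, replicate 2 held the highest value of 7 of 10 members, among them Cyp2c29 and the trio.

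The genes most like the family sum over the 12 libraries, among non-members averaging at least 5 TPM, were Il1rap (r = 0.88), Sugct (0.88), Adtrp (0.87), Hsd11b1 (0.86), Cml2 (0.85) and Sucnr1 (0.85). Over 11 libraries these had 0.77 to 0.89, and Erap1 (0.94) and Ttpa (0.93) had the highest values. Over all 12 libraries Erap1 had 0.11 and Ttpa 0.61, so the order of likeness rested on S302A_DEN replicate 3. Most like Cyp2c70 were Fga, C6, B3galt1 and Fgg (0.85 to 0.88), and most like Cyp2c55 were Ttc14, Stx8, Mkln1 and Pttg1 (0.90 to 0.95). Over 11 libraries the highest were Mup21, Il1r1, Gas5 and Apoa1 for Cyp2c70 (0.88 to 0.90) and Pttg1, Ttc14, Ptplb and 2810013P06Rik for Cyp2c55 (0.92 to 0.93). Fga and Fgg encode fibrinogen chains and C6 a complement protein, all secreted by hepatocytes.

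Of the 6 other Cyp2c symbols, Cyp2c67, Cyp2c68 and Cyp2c53-ps passed the filter and were tested, and no test between the groups was passed. Cyp2c67 had 471, 438 and 296 TPM in S302A_DEN, 375, 450 and 262 TPM in S302A_Ctrl, 376, 533 and 526 TPM in WT_DEN and 556, 361 and 276 TPM in WT_Ctrl. It overlapped in each comparison, and after DEN its difference was -0.26, with a 95% interval of -0.90 to 0.38. Cyp2c68 had 80.2, 120 and 231 TPM in S302A_DEN, 69.3, 73.6 and 44.3 TPM in S302A_Ctrl, 292, 143 and 161 TPM in WT_DEN and 135, 146 and 75.9 TPM in WT_Ctrl. S302A_Ctrl lay below WT_Ctrl without overlap (-0.90, 95% interval -1.76 to -0.03), and S302A_DEN lay above S302A_Ctrl without overlap (1.09, adjusted p = 0.226). Cyp2c65 and Cyp2c66 stood at the floor in all 12 libraries, Cyp2c69 did not exceed 1.13 TPM and Cyp2c53-ps did not exceed 3.89 TPM. Near the floor, Cyp2c53-ps was lower in S302A_DEN than in WT_DEN without overlap (-0.79, adjusted p = 0.406), as were 6.19% of all genes. It was higher in WT_DEN than in WT_Ctrl without overlap (0.69, adjusted p = 0.536), as were 21.7% of all genes.

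A few genes of the pathways around the Cyp2c enzymes were lower in S302A_DEN than in WT_DEN, and more of them passed without S302A_DEN replicate 3. Over all genes tested, 0.272% passed as lower over 12 libraries and 5.3% without that library. The median over all genes was 0.07 over 12 libraries. Of 14 tested genes of other epoxygenase and lipid P450 enzymes, 2 fell and none rose (median -0.67): the fatty acid hydroxylase genes Cyp4a10 (-3.97, adjusted p = 0.0477) and Cyp4f15 (-0.90, adjusted p = 0.0390). Cyp4a10 had 1.88, 4.09 and 41.6 TPM in S302A_DEN and 91.9, 186 and 137 TPM in WT_DEN. Without S302A_DEN replicate 3 it had -5.13 (adjusted p = 0.000339), and 5 genes of this list fell. Of 20 tested genes of other drug-metabolising P450 enzymes, 1 fell and none rose (median -0.57). It was Cyp2b10, the standard target gene of CAR, with 1, 2.33 and 1 TPM in S302A_DEN and 10.8, 15.1 and 12.1 TPM in WT_DEN (-2.51, adjusted p = 0.00285). Of this list, 8 of 19 genes fell without S302A_DEN replicate 3, Cyp2b10 with -2.39 (adjusted p = 0.00228). The DEN response of Cyp2b10 also differed between genotypes in limma (interaction -2.75, adjusted p = 0.0259). Of 23 tested transcription factors known to act on Cyp2c genes, none passed and 4 had an unadjusted p under 0.05 (7.83% of all genes did), among them Nr1i3, Ppara (-0.78, adjusted p = 0.208) and Nr1h4 (-0.55, 0.566). Nr1i3, which encodes CAR, had 45.4, 60.6 and 106 TPM in S302A_DEN and 182, 223 and 297 TPM in WT_DEN (-1.77, adjusted p = 0.0632). Nr1i3 was among 3 factors that fell without S302A_DEN replicate 3 (-2.11, adjusted p = 0.00946). Ephx2 had 385, 274 and 421 TPM in S302A_DEN and 636, 683 and 730 TPM in WT_DEN (-0.94, adjusted p = 0.0624), and Ephx1 differed by 0.01. Both passed as lower without S302A_DEN replicate 3 (Ephx2 -1.07, adjusted p = 0.00743).

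The remaining pathway lists held no called gene in this comparison over all 12 libraries. Of 17 genes of bile acid synthesis and transport beside Cyp2c70, none passed and 4 had an unadjusted p under 0.05 (7.83% of all genes did), with Slc27a5, which attaches coenzyme A to bile acids, at -0.93 (adjusted p = 0.0611), Cyp46a1 at -1.50 (0.0705) and Slc10a1, the bile acid uptake carrier, at -1.19 (0.192). Of 14 genes of electron transfer and haem supply none passed, also at an unadjusted p under 0.05, and the smallest p-values were those of Hmox1 (1.30, adjusted p = 0.682), Alas1 (-0.76, 0.721) and Alad (0.35, 0.810). Of 8 genes of arachidonate release and other oxygenases none passed, with the smallest p-values for Pla2g12a (0.47, adjusted p = 0.758), Pla2g6 (-0.27, 0.929) and Pla2g15 (-0.22, 0.944). Without S302A_DEN replicate 3, 1 bile acid gene rose and 4 fell (Slc27a5 with -0.84, adjusted p = 0.0186), and 1 gene fell in each of the other 2 lists. Over all genes 0.589% passed as higher and 5.3% as lower in that fit. In untreated livers no gene of these pathway lists passed between S302A and WT. The haem synthesis gene Alas1 had 139, 60.2 and 55.7 TPM in S302A_Ctrl and 344, 189 and 149 TPM in WT_Ctrl (-1.45, adjusted p of 1). DEN in S302A livers called Cyp2b10 (-1.86, adjusted p = 0.0127) and Cyp3a25 (-1.22, adjusted p = 0.0180), both lower, among the pathway lists, and both held without S302A_DEN replicate 3 (adjusted p = 0.0126 and 0.0106), when 3 further lists each held called genes. Over all genes 0.198% passed as lower with all 12 libraries. Without that library 1.22% passed as higher and 1.21% as lower. DEN in WT livers called none. Without S302A_DEN replicate 3, which enters the estimate of spread, it called genes among the transcription factors and the other drug-metabolising P450 genes. In that fit 1.93% of all genes passed as higher and 0.244% as lower.

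Cell type markers moved in the same comparison as the members. The sum of 6 hepatocyte markers, led by secreted proteins such as Alb, was 53898 to 63961 TPM in S302A_DEN, 50307 to 63403 TPM in S302A_Ctrl, 74953 to 89686 TPM in WT_DEN and 45963 to 66896 TPM in WT_Ctrl. Thus it was lower in S302A_DEN than in WT_DEN without overlap, and none of the 6 genes passed the test (median -0.44), the smallest p-values being those of Cyp2e1 (-0.65, adjusted p = 0.394), Alb (-0.74, 0.469) and Ttr (-0.62, 0.534). Alb was the largest part of this sum, at 26444 to 33122 TPM in S302A_DEN and 46307 to 56369 TPM in WT_DEN. Apoa1 went the other way on average, at 15420, 14064 and 10149 TPM in S302A_DEN and 8533, 9672 and 12150 TPM in WT_DEN. The sum of 5 cholangiocyte markers was 60.7 to 140 TPM in S302A_DEN, 18.1 to 21.1 TPM in S302A_Ctrl, 21.1 to 30.3 TPM in WT_DEN and 20.8 to 36.7 TPM in WT_Ctrl. Of its 2 tested genes Spp1 rose in S302A_DEN against WT_DEN (1.80, adjusted p = 0.0390, and 1.44, 0.0144 without S302A_DEN replicate 3), and at least 1 of the 5 markers was at the floor in every library. Krt7 was there in all 12 libraries, and Krt19 and Epcam in all but S302A_DEN replicate 3. Of 9 pericentral markers, which mark the zone where many P450 genes are high, 1 fell, the glutamate carrier gene Slc1a2 (-1.46, adjusted p = 0.0477), and the median was -0.10. Over all genes 0.272% passed as lower and 0.107% as higher, and the median was 0.07. Of 10 periportal markers none passed (median -0.68; Alb is in both this and the hepatocyte list, and Cyp2e1 in the pericentral one), with Cdh1 (1.85, adjusted p = 0.1004), Hal (-1.26, 0.186) and Gls2 (-1.06, 0.237) nearest. No gene passed among 5 tested macrophage markers (median 0.34, with Marco, Clec4f and Cd68 nearest), 3 lymphocyte markers (0.21, Cd79b, Nkg7 and Cd79a), 7 stellate and fibroblast markers (0.46, Col1a1, Col1a2 and Col3a1), 5 endothelial markers (-0.11, Clec4g, Kdr and Stab2) and 5 tumour and fetal markers (0.61, Golm1, Ly6d and Afp). The macrophage sum was 30.3 to 165 TPM in S302A_DEN and 47.7 to 86.6 TPM in WT_DEN, the stellate sum 28.1 to 152 TPM in S302A_DEN and 50.2 to 75.2 TPM in WT_DEN, and the lymphocyte sum, at or near the floor throughout, 7 to 14.0 TPM in S302A_DEN and 7 to 8.07 TPM in WT_DEN. In all 3 sums S302A_DEN replicate 3 was the highest of its group. Without it the pericentral markers went both ways: Slc1a2 held (-1.34, adjusted p = 0.0233), Aldh1a1 passed as lower (-1.59, 0.0127) and Tbx3 as higher (0.81, 0.0470). The periportal marker Cdh1 (1.31, 0.0334) and the cholangiocyte marker Sox9 (0.80, 0.0382) passed as higher, and the tumour marker Nqo1 as lower (-1.51, 0.0262). Over all genes 0.589% passed as higher and 5.3% as lower in that fit. No gene of the hepatocyte, macrophage, lymphocyte, stellate or endothelial markers passed in that fit. The part of these markers in the Cyp2c differences was not tested.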

How the data were processed

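Total RNA of mouse liver was sequenced as 12 TruSeq libraries on a HiSeq instrument, per the labels' protocols. The authors deposited TPM per gene symbol, which kallisto estimates by pseudoalignment, with mm10 as the build, per the submitters' processing notes. The kallisto version and the annotation are not given in the sources used here. No value lay below 1 and 58.1% to 65.3% of values stood at 1, which was read as a floor. TPM keeps no depth, so no counting interval is given, and no 2 of the 66 library pairs were identical. The S302A allele changes 1 amino acid, so gene-level TPM does not check the genotype labels.

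Genes with a TPM above 1 in at least 3 of 12 libraries were tested as log2(TPM + 1), a scale that understates changes of low genes, with limma 3.58.1 in R 4.3.3. The model had 4 group means, a mean-variance trend and 8 residual degrees of freedom. All tests are two-sided, with Benjamini-Hochberg adjustment over all genes tested, with a threshold of 0.05. Differences are log2 values with the first-named group on top. The fit was tested on simulated data. The members and gene lists were chosen with earlier results of these data known. All members, all other Cyp2c symbols, list genes past the threshold or the 3 of smallest p (1 of which is not reported here), and the 6 or 4 genes most alike in pattern are named. Nr1h4, the genes not overlapping between genotypes and Alas1 in untreated livers were named after their values were seen. Alternatives changed the pseudocount (0.1), the filter, the scaling between libraries, the replicate block, the libraries in the fit and each library left out. Positions and transcripts came from GENCODE M21, promoters from RefSeq (GRCm38.p6), where 8 of 10 members had an entry. Transcripts were aligned with Biopython 1.88, tables were made with pandas 2.3.3 in Python 3.11.15, and figures were drawn with matplotlib 3.10.9.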

Additional observations from a re-analysis of the deposited data

Results flagged for a closer look

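Cyp2c29 and Cyp2c54 stood out because, in TPM as deposited, DEN went opposite ways in the 2 genotypes in every library. For Cyp2c29 the 3 S302A_DEN libraries lay below the 3 S302A_Ctrl libraries, and the 3 WT_DEN libraries lay above the 3 WT_Ctrl libraries, with an interaction of -2.02 on the log2(TPM + 1) scale. For Cyp2c54 the libraries were placed in the same way, with an interaction of -2.04. Its WT groups overlapped under median-of-ratios scaling. There WT_DEN replicate 1 (330 TPM, scaling factor 1.18) fell below WT_Ctrl replicate 3 (263 TPM, scaling factor 0.886). The limma test of the interaction did not pass for either gene (adjusted p = 0.315 for Cyp2c29 and 0.304 for Cyp2c54, and 0.104 and 0.0953 without S302A_DEN replicate 3). Over all genes tested, 39 of 12120 (0.322%) were lower in S302A and higher in WT after DEN without overlap, and 17 (0.14%) the other way round.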

How the results depend on the processing

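Of 1119 differences of single members recomputed under an alternative, 1037 kept their direction and side of the threshold, though their size could move. A further 41 lost their call, 15 gained one and 26 changed sign. The cause was not tested for any of these, except that fewer libraries entered the fits that left libraries out. After DEN the 4 calls between S302A and WT became 0 with no filter (adjusted p 0.159 to 0.180) and 0 in the libraries of the contrast alone, and 0 to 5 on leaving out 1 library. Untreated livers gave 0 to 1 call on leaving out 1 library, and the interaction 0 to 1. Calls of DEN in S302A numbered 0 with no filter, 2 with a TPM of at least 5 in 3 libraries (Cyp2c44 and Cyp2c54), 0 with a TPM above 1 in at least 1 library (an alternative added after the data were seen), 0 in the libraries of the contrast alone, and 0 to 3 on leaving out 1 library. DEN in WT gave 0 calls throughout. For S302A averaged over treatments the 2 calls became 0 with no filter, 0 with the filter on 1 library and 0 under median-of-ratios scaling, and 1 to 4 on leaving out 1 library.

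Median-of-ratios scaling moved the family sum of DEN in WT to 0.22, and it moved the median over all genes by -0.27 for DEN in S302A, -0.15 for DEN in WT and -0.12 for the interaction. Under it Cyp2c70 in untreated livers changed sign to 0.018 and Cyp2c40 in the interaction to -0.071. Genes called over the whole table became 651 (47.0% higher) for DEN in S302A, against 75 (68.0%), 19 (57.9%) for DEN in WT, against 16 (87.5%), 210 for S302A after DEN, against 46, and 12 (4 of them higher) for the interaction, against 5 (3 higher). Without a filter these counts were 4, 1 and 9 for the first 3 comparisons, in the libraries of the contrast alone 17, 147 and 4, and with the filter on 1 library 35, 3 and 28. The stricter filter gave 132 for DEN in S302A and 3 for the averaged contrast, where pseudocount 0.1 gave 5.

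With the replicate block, 4 members were called after DEN, 1 for DEN in S302A and 3 in the averaged contrast (31, 60 and 6 genes over the whole table, and 5 for DEN in WT). Same-numbered libraries did not deviate together in every comparison (correlations -0.11 to 0.28). Differently numbered libraries were not compared in this way, so these values cannot settle whether the numbers pair the libraries.

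Leaving out 1 library changed the sign of small differences. After DEN, Cyp2c39 ranged from -0.59 to 1.29 and Cyp2c55 from -1.38 to 0.055. In untreated livers, Cyp2c29 ranged from -0.49 to 0.070, Cyp2c44 from -0.022 to 0.49 and Cyp2c70 from -0.18 to 0.073. For DEN in S302A, Cyp2c38 ranged from -1.88 to 0.16, Cyp2c39 from -1.59 to 0.16 and Cyp2c55 from -0.13 to 1.30. For DEN in WT, Cyp2c37 ranged from -0.37 to 0.053, Cyp2c40 from -0.052 to 0.70 and Cyp2c44 from -0.48 to 0.028. Cyp2c38 averaged over treatments ranged from -0.73 to 0.29 and Cyp2c40 in the interaction from -0.33 to 0.42. Depth is unknown, and 3 libraries a group limit the precision.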
